A study of Saccharomyces cerevisiae with 50 samples.

Results

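The passage from G2/M to mitotic exit and the next M/G1 was followed in budding yeast (Saccharomyces cerevisiae) that lacks YOX1. The comparison takes 10 of the 50 arrays of a cell cycle time course, chosen by the time in their titles: 4 arrays of 45 and 50 min and 6 arrays of 70, 75 and 80 min. A culture of the yox1 deletion strain had been arrested before the cycle by alpha factor, the pheromone of the opposite mating type, and was then released into YEPD, a rich medium. Its RNA carried Cy5, and RNA from unsynchronised wild-type cells, grown in YEPD as well, carried Cy3 on every array. The deletion is shared by every time point, so both sides of the comparison lack YOX1, and a wild-type course for comparison was not used here.

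At the end of mitosis budding yeast inactivates its mitotic cyclin-kinase, divides its cytoplasm and enters G1. Swi5, a transcription factor held out of the nucleus by the mitotic kinase, then switches on genes of kinase inhibition and mating-type switching, and genes of daughter cell separation are switched on in the same interval. At the same time the MADS-box protein Mcm1 activates genes with an early cell cycle box (ECB) in their promoters, among them genes of replication licensing and of the decision to start a new cycle. The homeodomain proteins Yox1 and Yhp1 repress ECB promoters outside this interval. The comparison therefore shows which genes differ, when Yox1 is missing, between G2/M and the first undisturbed passage through mitotic exit and M/G1.

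Each time point had 1 array in each of 2 array sets, which the titles distinguish and which the design text calls technical repeats. Averaging these repeats left 2 time points to compare with 3, so that p-values measure the scatter between time points of a culture and not the spread between cultures. Values are log2 ratios to the wild-type reference, positive where the mutant sample was higher, and differences are 70 to 80 min minus 45 to 50 min with the standard error (SE) of limma's fit. The 10 arrays measured 5788 to 6101 of 6205 open reading frames, and none of them is from 25, 40 or 55 min. In both sets the arrays of 45 and 50 min carry another date in their titles than those of 70 to 80 min. On these 10 arrays the title date and the stage cannot be told apart, and counts are therefore also given with the date in the fit, as a random block on these arrays and as a fixed factor over all 50 arrays. The fixed-factor fit gives every time point its own term, so its p-values measure only the scatter between technical repeats. In it only the arrays of 10 and 120 min join a date of the earlier window to one of the later window.

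For the array counted as 75 min in set 2 the labels conflict, since only the title gives 75 min and the source name gives 0 min. Over genes it correlated best with the 80 min array of its own set (r = 0.79), next to 0.72 with the 70 min array of that set and 0.52 with the other 75 min array. Its r with the 2 arrays of 0 min was 0.20 and 0.15, ranks 42 and 43 of 49. FUS1, a fusion protein induced by pheromone, stood at -0.78 on it, against 3.67 and 3.96 at 0 min, and EGT2, a gene of early G1, at 0.82, against -1.67 and -2.52. It was kept as 75 min, and counts are also given without it. Of the a-specific marker genes 4 of 7 tested were called, all higher, and of the alpha-specific ones none of 2 was, with differences of 0.06 ± 0.16 for MF(ALPHA)2 and -0.42 ± 0.21 for STE3.

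Of 6004 genes tested, 222 were higher at 70 to 80 min (3.7%) and 208 were lower (3.46%), together 7.16%, at a Benjamini-Hochberg adjusted p under 0.05 in limma. The median difference was 0.66 for the higher and -0.62 for the lower genes, against -0.001 over all genes, whose quartiles were -0.17 and 0.16. The larger changes were mostly increases: 43 of the higher genes and 16 of the lower ones differed by more than 2-fold. The counts moved with the time points used. Without 45, 50, 70, 75 or 80 min, 20, 28, 287, 48 and 44 genes were higher and 1, 11, 220, 37 and 28 were lower, and without the 75 min array of doubtful label 79 and 63 were. With the title date as a random block 41 genes were higher and 17 lower, and as a fixed factor over all arrays 129 and 97, where 215 of 216 higher and 204 of 205 lower genes kept their sign.

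**Figure D1:**
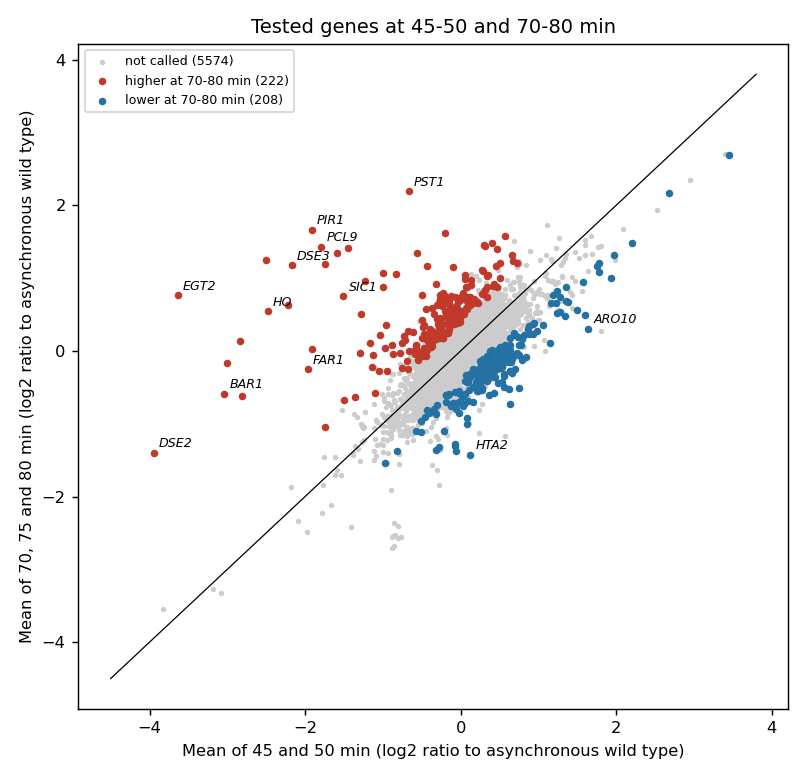
Mean log2 ratio to asynchronous wild type at 70, 75 and 80 min (vertical axis) against that at 45 and 50 min (horizontal axis) for 6004 genes, with the diagonal of no difference; red points are the 222 genes called higher and blue points the 208 called lower. The genes farthest from the diagonal lie above it, with EGT2, DSE3, PCL9 and PIR1 among them, and HTA2 and ARO10 lie below it.

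The deleted gene and its partners came first. The YOX1 probe read -0.74 and -0.83 at 45 and 50 min in set 1 and -0.02 and -0.47 in set 2. At 70 to 80 min its 6 values ran from -1.54 through a median of -1.15 to -0.72. All 10 values were below the reference, and the groups overlapped because set 1 read lower than set 2 at every time. The difference of -0.60 ± 0.12 passed the test (adjusted p = 0.0337), and the call held in 10 of 22 alternative fits. Whether the probe lies inside the deleted stretch is not known here, so this signal does not check the deletion. YHP1, the close relative of YOX1, went from a mean of 0.30 to -0.02 (difference -0.33 ± 0.10, adjusted p = 0.0923), and MCM1, which encodes the activator at ECB promoters, from -0.55 to -0.40 (0.15 ± 0.11, adjusted p = 0.414).

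Among the 13 transcription factors and repressors of the G2/M and G1 programmes, 3 fell and none rose, counting the probe of the deleted YOX1. FKH1 and FKH2 encode forkhead factors of the G2/M programme. FKH1 read 0.94 and 1.03 in set 1 and 0.76 and 0.62 in set 2 at 45 and 50 min, and -0.50, -0.12 and 0.25 as lowest, median and highest value at 70 to 80 min. Every later array was below every earlier one, and the fall was -0.93 ± 0.11 (adjusted p = 0.01). FKH2 fell by 0.65 (-0.65 ± 0.11, adjusted p = 0.0244), and the third gene was YOX1. NDD1, their coactivator, differed by -0.47 ± 0.12 (adjusted p = 0.0717). The message of SWI5 did not pass the test, with a difference of -0.23 ± 0.17 (adjusted p = 0.441), and its time point means were 0.48, 0.34 and -0.10 at 70, 75 and 80 min. Of the 3 falls none was called without 45 or without 50 min, 3 without 70 min, 1 each without 75 or 80 min and 2 without the doubtful array; with the date 1 was called in either fit.

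Known targets of Swi5 were higher at mitotic exit. Of 8 tested genes 7 rose and none fell, and the median difference of the list was 2.56, against -0.001 over all genes. PCL9, a Pho85 cyclin of M/G1, read -2.10 and -1.85 in set 1 and -1.66 and -1.57 in set 2 at 45 and 50 min. At 70 to 80 min its lowest, median and highest values were 1.04, 1.44 and 2.07. All 4 early arrays were below the reference and all 6 late ones above it, a rise of 3.23 ± 0.18 or 9.37-fold (adjusted p = 0.000269). ASH1, the repressor of HO in daughter cells, rose by 2.93 ± 0.12 (adjusted p = 0.000109), from values of -2.03 to -1.36 to values of 0.91 to 1.56.

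SIC1, the inhibitor of the mitotic cyclin-kinase, read -1.59 and -1.54 in set 1 and -1.52 and -1.39 in set 2 at 45 and 50 min. Its values at 70 to 80 min were 0.56, 0.74 and 0.98 as lowest, median and highest. The 2 groups were far apart next to the scatter within them, and the rise was 2.26 ± 0.11, 4.8-fold (adjusted p = 0.000171). RME1, a regulator of meiosis and of G1 cyclin expression, rose by 2.85 ± 0.25, the fatty acyl-CoA synthetase gene FAA3 by 1.26 ± 0.10 and the Pho85 cyclin gene PCL2 by 0.99 ± 0.22. HO, the endonuclease of mating-type switching, was the gene of this list with the widest spread in the later window. It read -2.31 and -2.29 in set 1 and -2.76 and -2.56 in set 2 at 45 and 50 min, and its time point means were -0.50 at 70 min, 0.72 at 75 min and 1.41 at 80 min, for a rise of 3.02 ± 0.49 (adjusted p = 0.0217). CYK3, a gene of cytokinesis with 1 array at 50 min, did not pass the test (-0.25 ± 0.10, adjusted p = 0.156). Without 45, 50, 70, 75 or 80 min 4, 5, 7, 5 and 5 of the 8 genes rose, and 6 did without the doubtful array.

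Daughter cell separation genes were also higher. Of 13 tested genes 10 rose and none fell, with a list median of 2.20. EGT2, an early G1 gene of septum degradation, had the largest rise of all genes called: it read -3.63 and -3.35 in set 1 and -3.86 and -3.71 in set 2 at 45 and 50 min. At 70 to 80 min its values were 0.16, 0.72 and 1.35 as lowest, median and highest, a rise of 4.40 ± 0.20 or 21.1-fold (adjusted p = 0.000158). At 45 and 50 min EGT2 was far below an asynchronous culture, and at 70 to 80 min above it on all 6 arrays. DSE3, a daughter-specific protein of the bud neck, read -2.33 and -2.06 in set 1 and -2.02 and -2.28 in set 2, and then 0.87, 1.21 and 1.43. Its time point means of 1.07, 1.21 and 1.25 differed little within the later window, and its adjusted p was 3.93e-05 for a rise of 3.35 ± 0.10.

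The other called genes of the list also encode separation enzymes and daughter-specific proteins. The glucanase genes DSE4 (3.75 ± 0.48) and SCW11 (2.85 ± 0.34) rose, as did DSE2 (2.55 ± 0.57) and DSE1 (2.20 ± 0.40). AMN1, an antagonist of the mitotic exit network in daughter cells, rose by 2.97 ± 0.16, and CHS1, the chitin synthase of cell separation repair, by 2.07 ± 0.10. NIS1, a protein of the bud neck, rose by 1.95 ± 0.14 and BUD9, a landmark of bud site selection, by 1.01 ± 0.22. These rises were not simultaneous: CHS1 stood at 1.05, 1.00 and 1.17 at 70, 75 and 80 min, whereas DSE2 stood at -2.68, -0.92 and -0.60 and DSE1 at -1.49, -0.32 and -0.03. The mean of DSE4 at 70 min rests on the array of set 2 alone. DSE2 thus remained below the asynchronous reference at its latest value here, although its mean over 70 to 80 min was 5.85-fold above that of 45 to 50 min.

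CTS1, the endochitinase of the septum, did not pass the test. It read -0.45 and 0.13 in set 1 and -0.07 and -0.03 in set 2 at 45 and 50 min, and its later values, which lack the 70 min array of set 1, ran from -0.08 to 0.13. All 9 values lay near the reference, and the difference was 0.10 ± 0.12 (adjusted p = 0.657). The 2 other genes that were not called were SUN4, a glucosidase-family gene (0.39 ± 0.27), and PRY3, a wall protein gene (1.57 ± 0.44, adjusted p = 0.0821), which read lower at 70 min than at 75 and 80 min. Without 45, 50, 70, 75 or 80 min 5, 5, 12, 6 and 7 genes of the list rose, and 8 did without the doubtful array. With the date as a random block 7 separation genes and 5 Swi5 targets rose, and as a fixed factor 10 and 7.

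**Figure D2:**
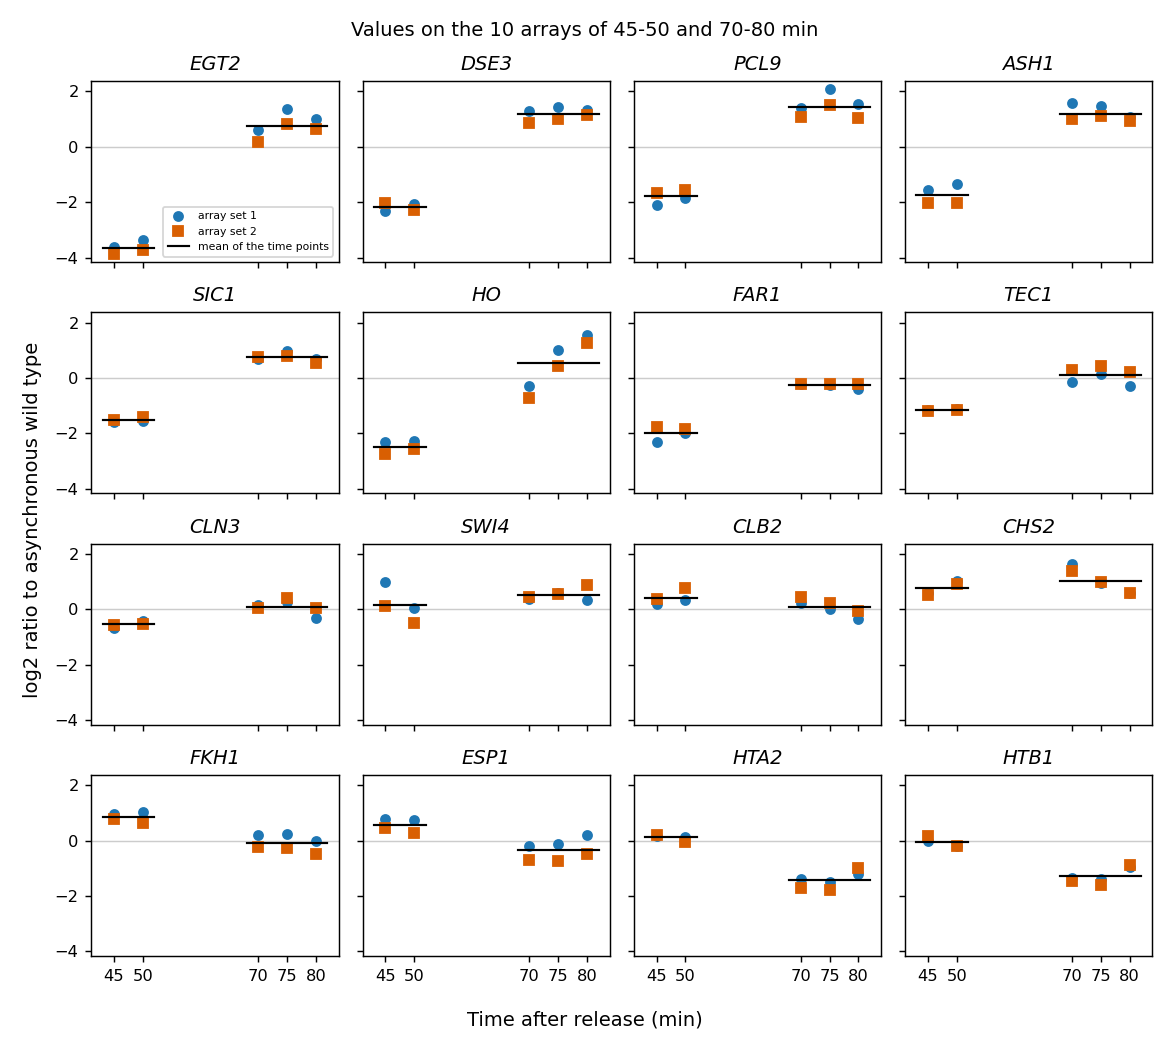
Log2 ratio to asynchronous wild type on each of the 10 arrays for 16 genes, by time after release (min), with circles for array set 1, squares for set 2 and a black line at the mean of the time points of each group. EGT2, DSE3, PCL9, ASH1, SIC1, HO, FAR1 and TEC1 rise without overlap between the groups, CLN3, SWI4, CLB2 and CHS2 were not called, and FKH1, ESP1, HTA2 and HTB1 fell.

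Wall proteins moved unevenly. Of 14 tested genes 6 rose and none fell, while the list median was 0.01. The differences were positive for 7 genes and negative for 7, the lowest at -0.81. At an unadjusted p under 0.05 in limma 6 were higher and 4 lower, beside 1524 of all 6004 tested genes in either direction. PIR1, a protein linked to wall glucan and named for its internal repeats, read -2.70 and -2.15 in set 1 and -1.46 and -1.36 in set 2 at 45 and 50 min, and 1.18, 1.60 and 2.14 at 70 to 80 min. The 2 groups lay on opposite sides of the reference, and the rise of 3.58 ± 0.14 was 12.0-fold (adjusted p = 0.000101). PST1, a wall protein gene, rose by 2.86 ± 0.14, NCW2, a gene of the chitin-glucan network, by 2.86 ± 0.19, HSP150, another PIR protein, by 2.19 ± 0.34 (without the 45 min array of set 2, which has no value) and YGP1, a secreted glycoprotein, by 1.25 ± 0.12. PIR3, the neighbour of PIR1 on its chromosome, rose less, by 0.49 ± 0.11 (adjusted p = 0.0458), from a level that was already above the reference on all 4 early arrays (0.23 to 0.92). Without 45 or 50 min 3 genes rose; with the date as a random block or a fixed factor 4 did. AIM44, a bud neck protein gene outside the lists, rose by 2.94 ± 0.11 and was called in all 22 alternative fits.

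ECB genes, the group that Mcm1 activates and that Yox1 and Yhp1 repress, rose by less. Of 12 tested genes 6 rose and none fell, and the list median was 0.58. FAR1, the inhibitor of G1 cyclin-kinase in pheromone arrest, read -2.30 and -1.98 in set 1 and -1.76 and -1.83 in set 2 at 45 and 50 min. At 70 to 80 min its values were -0.41, -0.22 and -0.21, so it rose by 1.71 ± 0.09 or 3.28-fold (adjusted p = 0.000269) and stayed below the reference on every array. TEC1, a transcription factor of filamentous growth, rose by 1.27 ± 0.12 (adjusted p = 0.00396), from values of -1.20 to -1.12 to values of -0.29 to 0.43. No array of the later group overlapped the earlier ones for either gene.

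Of the MCM genes, whose products form the replicative helicase that is loaded in G1, 4 rose: MCM5 by 0.71 ± 0.11, MCM2 by 0.64 ± 0.09, MCM3 by 0.61 ± 0.12 and MCM7 by 0.54 ± 0.10. MCM4 (0.39 ± 0.12, adjusted p = 0.11) and MCM6 (0.17 ± 0.09, adjusted p = 0.294) did not pass the test. The means of MCM5 at 45 min, of MCM3 at 70 and 75 min and of MCM4 at 70 and 75 min rest on 1 array each. CDC6, which loads the helicase, had a difference of 0.43 ± 0.11 (adjusted p = 0.0654), and its 4 early values of 0.67 to 0.90 lay below its 6 later ones of 0.98 to 1.65. CLN3, the cyclin that starts the G1 programme, read -0.68 and -0.42 in set 1 and -0.56 and -0.54 in set 2, and then -0.32, 0.10 and 0.42. Its groups did not overlap, but the difference of 0.65 ± 0.15 did not pass the threshold (adjusted p = 0.0511).

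SWI4, the DNA-binding subunit of SBF, read 0.97 and 0.06 in set 1 and 0.12 and -0.51 in set 2 at 45 and 50 min, and 0.34, 0.50 and 0.87 at 70 to 80 min. The groups overlapped through the 45 min array of set 1, the difference was 0.37 ± 0.21 (adjusted p = 0.319), and the array sets gave -0.07 and 0.82. STE6, the exporter of a-factor, differed by 0.47 ± 0.12 (adjusted p = 0.0638). Without 45, 50, 70, 75 or 80 min 1, 2, 7, 2 and 2 ECB genes rose, 4 did without the doubtful array, and 2 and 3 did with the date as a random block and as a fixed factor. FAR1 was called in all 22 alternative fits and TEC1 in 20.

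Of the 7 a-specific genes tested, which Mcm1 also regulates, 4 rose and none fell, and BAR1, STE2 and MFA2 were below the reference on all 10 arrays. BAR1, the protease that degrades alpha factor, read -3.31 and -3.04 in set 1 and -2.95 and -2.84 in set 2 at 45 and 50 min, and -1.06, -0.46 and -0.30 at 70 to 80 min, a rise of 2.45 ± 0.18 (adjusted p = 0.00127). STE2, the alpha factor receptor, rose by 0.82 ± 0.13, although set 1 at 70 min (-1.15) was within the range of the early arrays of set 2. MFA2, a gene of the a-factor pheromone, rose by 0.72 ± 0.13 and AGA2, the a-agglutinin subunit, by 0.52 ± 0.11. MFA1, the other a-factor gene (0.31 ± 0.14), ASG7 (0.18 ± 0.15) and STE6 did not pass the test. Without 45, 50, 75 or 80 min 1 of the 7 genes rose, without the doubtful array 2 did, and with the date 1 did in either fit. Of 14 pheromone response genes only STE2 and GPA1, the alpha subunit of the receptor's G protein (0.91 ± 0.10), rose, and the list median was 0.01; without 45 or 50 min neither was called and without 75 or 80 min 1 was, as with the date in either fit.

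No gene of the CLB2 cluster, the G2/M genes activated by Mcm1 with Fkh2 and Ndd1, was called in either direction by limma. At an unadjusted p under 0.05, 1 of the 19 genes was higher and 5 were lower, and the list median was -0.25. Over all 6004 tested genes 1524 passed this unadjusted cut in limma, in either direction. The counts of other lists at this cut are to be read beside that share. The course of the list showed that its peak lay between the compared windows: the median was 0.52 and 0.65 at 45 and 50 min, 0.97 at 60 min, 0.92 at 65 min, and 0.69, 0.34 and 0.16 at 70, 75 and 80 min. CLB2, the main mitotic cyclin, read 0.21 and 0.34 in set 1 and 0.38 and 0.76 in set 2 at 45 and 50 min, and -0.34, 0.10 and 0.44 later. Its groups overlapped, with time point means of 0.33, 0.11 and -0.21 at 70, 75 and 80 min and a difference of -0.35 ± 0.17 (adjusted p = 0.257).

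Members of the cluster differed in how late they stayed high. CHS2, the chitin synthase of the primary septum, stood at 1.5 at 70 min, 0.97 at 75 min and 0.59 at 80 min, against 0.53 to 1.04 on the early arrays. KIN3, a mitotic protein kinase, was higher on every later array, with a difference of 0.63 ± 0.19 (adjusted p = 0.0959). ALK1, a kinase of the haspin type, had a difference of -0.61 ± 0.22, HST3, a histone deacetylase, of -0.52 ± 0.13 and CDC5, the polo kinase, of -0.51 ± 0.14, and none of these passed the test. Without 70 min 8 genes of the cluster were lower, with the date as a fixed factor 1 was higher and 2 were lower, and without any other time point none was called.

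Some genes for mitotic exit and cytokinesis passed the test. Of the exit list 13.3% fell, and of the list of ring, septins and septum 11.8%, beside 3.46% of all tested genes. Neither list was tested as a group. Of 15 genes of the mitotic exit network and early anaphase release 2 fell and none rose, 7 were lower and none higher at an unadjusted p under 0.05, and the list median was -0.31. ESP1, the separase, read 0.77 and 0.73 in set 1 and 0.45 and 0.27 in set 2 at 45 and 50 min and -0.74, -0.34 and 0.21 later. The groups did not overlap, and it fell by 0.90 (-0.90 ± 0.12, adjusted p = 0.015); LTE1, an activator of mitotic exit, fell by 0.57 (-0.57 ± 0.11, adjusted p = 0.0337). Of 14 genes of the anaphase-promoting complex and its partners none was called by limma, and 1 was higher and 1 lower at an unadjusted p under 0.05. These were ACM1, an inhibitor of the complex (0.83 ± 0.28, adjusted p = 0.123), and PDS1, the securin (-0.65 ± 0.15, adjusted p = 0.0538).

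Of 17 genes of the contractile ring, septins and septum BNR1, a formin, rose by 0.52 ± 0.10, while BUD3, a landmark of axial budding (-0.70 ± 0.11), and CDC11, a septin (-0.41 ± 0.09), fell. At an unadjusted p under 0.05, 1 of the 17 was higher and 6 were lower, and the list median was -0.18. MYO1, the ring myosin, differed by -0.48 ± 0.12 (adjusted p = 0.0595). Without 45 or 50 min no gene of these 3 lists was called. Without 70 min 4 exit genes and 4 ring genes fell and 1 ring gene rose, without 75 min none did, and without 80 min 1 exit gene and no ring gene fell. Without the doubtful array and with the date as a fixed factor 1 exit gene fell and no ring gene changed, and with the date as a random block none did in either list. Of the anaphase-promoting complex list 1 gene was higher without 70 min, and 1 was higher and 1 lower with the date as a fixed factor.

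**Figure D3:**
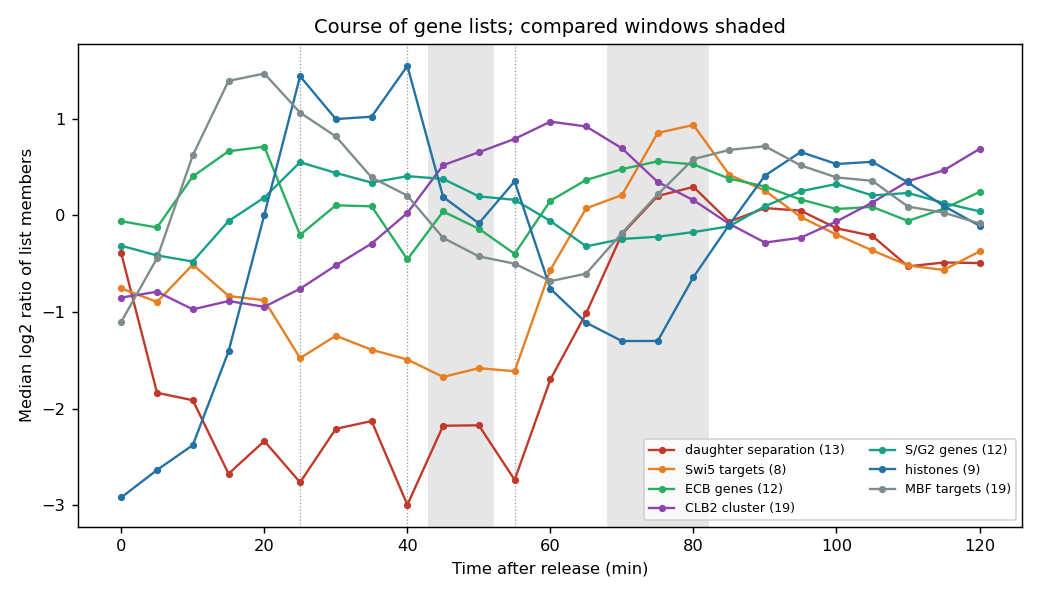
Median log2 ratio of the members of each gene list at the 25 time points (min after release), with the compared windows shaded and dotted lines at 25, 40 and 55 min. The Swi5 and separation lists climb from 50 min to 80 min, the CLB2 cluster peaks at 60 min, between the windows, and the histone median falls to -1.30 at 70 and 75 min.

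Genes of S phase and G2 fell. Of 9 histone genes 6 fell and none rose, with a median difference of -1.10, and all 9 were lower on every later array than on every earlier one. For 5322 genes measured on all 10 arrays such separation downward was seen for 4.79% and upward for 5.6%. HTA2, a gene of histone H2A, read 0.18 and 0.14 in set 1 and 0.20 and -0.04 in set 2 at 45 and 50 min and -1.79, -1.43 and -1.0 at 70 to 80 min, a fall of -1.54 ± 0.17 (adjusted p = 0.00749). It had the largest fall of the genes called. HTA1 fell by 1.32 (-1.32 ± 0.26), and the H2B genes HTB2 and HTB1 by 1.23 and 1.21.

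Genes of H3 and H4 followed. HHF2 and HHT2 fell by 1.08 and 1.01, whereas HHF1 (-1.10 ± 0.26, adjusted p = 0.0513), HHT1 (-0.88 ± 0.21, adjusted p = 0.0561) and the linker histone gene HHO1 (-0.81 ± 0.19, adjusted p = 0.0539) did not pass the test. HTA2 and HTB2, HTA1 and HTB1, and HHT2 and HHF2 are neighbours in the RefSeq table. Because the paired copies of each core histone gene are nearly the same in sequence, their values are not independent. Within the later window the list median was -1.30 at 70 and 75 min and -0.64 at 80 min, when the next cycle's G1 genes were already higher. Without 45, 50, 70, 75 or 80 min 0, 0, 4, 1 and 8 histone genes fell, 4 did without the doubtful array, and 1 and 8 did with the date as a random block and as a fixed factor.

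Of 12 genes of S phase and G2, many of them for the spindle, 6 fell and none rose, and the list median was -0.60. Besides FKH1 these were DSN1, a kinetochore subunit (-0.65 ± 0.09), CLB4, a B-type cyclin (-0.62 ± 0.09), STU2, a microtubule polymerase (-0.61 ± 0.10), and the kinesins KIP1 (-0.59 ± 0.12) and KAR3 (-0.58 ± 0.12). The kinesin CIN8 (-0.65 ± 0.16, adjusted p = 0.0628) and VIK1, the partner of KAR3 (-0.75 ± 0.21, adjusted p = 0.0858), did not pass the test. DSN1 was at -0.50, -0.49 and -0.51 at 70, 75 and 80 min, against 0.10 to 0.26 on the early arrays. The means of CLB4 at 45 min and of KIP1 at 75 and 80 min rest on 1 array each. Without 45, 50, 70, 75 or 80 min 0, 0, 6, 1 and 1 of them fell, 3 did without the doubtful array, and 1 and 4 did with the date as a random block and as a fixed factor.

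The later window also held the beginning of the next G1 programme. Of 19 tested targets of MBF, the late G1 factor of replication genes, 3 rose and none fell, with a median difference of 0.51. CLB6, an S-phase cyclin, read 0.19 and 0.13 in set 1 and -0.05 and -0.05 in set 2 at 45 and 50 min and 0.55, 0.99 and 1.45 at 70 to 80 min. It rose by 0.93 ± 0.19 (adjusted p = 0.0404) and was at 0.64, 0.96 and 1.35 at 70, 75 and 80 min. POL12, a subunit of DNA polymerase alpha, rose by 0.91 ± 0.16 and PRI2, a subunit of primase, by 0.70 ± 0.14. RNR1, the large subunit of ribonucleotide reductase, went from -0.48 at 70 min through 0.67 to 1.03 at 80 min, and its difference of 0.95 ± 0.40 did not pass the test (adjusted p = 0.201). Over the list the median was -0.18, 0.21 and 0.58 at 70, 75 and 80 min. Without 70 min 9 MBF targets rose, without any other time point none did, without the doubtful array 1 did, and with the date none did as a random block and 6 as a fixed factor.

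None of 13 targets of SBF, the late G1 factor of cyclins and bud growth, was called by limma, and 1 was higher and 2 were lower at an unadjusted p under 0.05. Their median was -0.46, 0.01 and 0.39 at 70, 75 and 80 min. CLN2, a G1 cyclin, read -1.03 at 70 min, 0.01 at 75 min and 0.42 at 80 min, against -0.82 to -0.32 on the early arrays, for a difference of 0.39 ± 0.38. TOS6, a wall protein gene of the list, differed by -1.09 ± 0.29 (adjusted p = 0.0757). Without 70 min 3 SBF targets rose, and with the date as a fixed factor 1 fell.

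**Figure D4:**
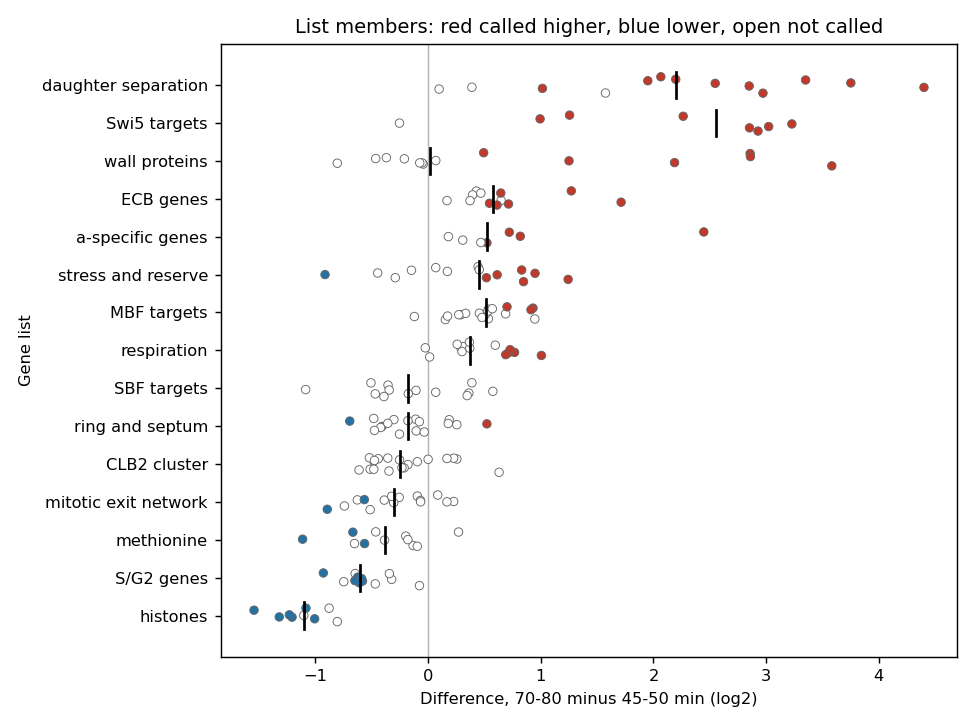
Difference between 70 to 80 min and 45 to 50 min (log2) for each tested member of the gene lists, red where called higher, blue where called lower and open where not called, with a black bar at the list median. The list medians of separation genes (2.20) and Swi5 targets (2.56) lie farthest to the right and that of histones (-1.10) farthest to the left, PIR1 of the wall list lies at 3.58, while the CLB2 cluster spans 0 with no called member.

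Genes outside the cell cycle lists differed as well. Of 14 stress and reserve carbohydrate genes 6 rose and 1 fell, with a list median of 0.45. TSL1, a subunit of trehalose synthase, read -0.14 and 0.03 in set 1 and -0.51 and -0.64 in set 2 at 45 and 50 min, and 0.36, 0.90 and 1.27 at 70 to 80 min, a rise of 1.24 ± 0.11 (adjusted p = 0.00394). The others that rose were GPD1, for glycerol synthesis (0.95 ± 0.18), TPS1 and TPS2, for trehalose, and GSY1 (0.83 ± 0.12) and GLC3, for glycogen. The gene that fell was SSA4, a heat-inducible Hsp70 (-0.91 ± 0.11, adjusted p = 0.01). The rises thus lay in the synthesis of trehalose, glycogen and glycerol. Without 45, 50, 75 or 80 min 0, 1, 1 and 1 of these genes rose, without the doubtful array 3 did, and 1 and 3 did with the date as a random block and as a fixed factor. SSA4 was not called without 45 min or with the date as a fixed factor.

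Of 14 genes of the TCA cycle and respiratory chain 5 rose and none fell, with a median of 0.37. They were 3 genes of succinate dehydrogenase, SDH2 (1.01 ± 0.16), SDH1 (0.73 ± 0.15) and SDH4 (0.69 ± 0.10, with 1 array at 45 min), with COX4 of cytochrome oxidase (0.77 ± 0.10) and RIP1 of the cytochrome bc1 complex (0.71 ± 0.15). SDH2 read 0.97 and 0.68 in set 1 and 0.37 and 0.27 in set 2 at 45 and 50 min and 0.92, 1.51 and 2.15 later, so that its groups overlapped. Without 45, 50, 75 or 80 min 0, 0, 1 and 0 of these genes rose, without the doubtful array 1 did, and 0 and 3 did with the date as a random block and as a fixed factor.

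Of 11 genes of sulfate assimilation and methionine synthesis 3 fell and none rose, and the list median was -0.39. MET3, the ATP sulfurylase, read 2.04 and 1.42 in set 1 and 1.73 and 1.22 in set 2 at 45 and 50 min and 0.24, 0.37 and 0.91 later, a fall of -1.11 ± 0.23 (adjusted p = 0.0374). MET17, the sulfhydrylase that makes homocysteine, fell by 0.67 and MET5, a sulfite reductase subunit, by 0.56. All 3 were above the reference on every array of both windows. PHO12, an acid phosphatase, was the only called gene of 12 of the phosphate regulon, lower by -0.46 ± 0.10 (adjusted p = 0.0454) with array sets offset from each other. Without 45, 50, 75 or 80 min, and without the doubtful array, no methionine or phosphate gene was called; with the date as a fixed factor 1 methionine gene was, and as a random block none.

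Genes of the ribosome gave no calls in limma. Of 130 ribosomal protein genes none was called, 12 were higher and none lower at an unadjusted p under 0.05, and the median difference was 0.12. That cut was passed by 1524 of all 6004 tested genes, in either direction. Of 15 ribosome biogenesis factors none was called, 1 was lower at an unadjusted p under 0.05, and the median was -0.03. Several of the largest falls lay outside the lists. DDR48, a DNA damage-responsive gene, fell by 1.36 (-1.36 ± 0.18, adjusted p = 0.014). ARO10 and ARO9, which act in the breakdown of aromatic amino acids, fell by 1.33 and 1.05, and MEP2, an ammonium permease, fell by 1.05. YMR173W-A fell by 1.27, YKL030W by 1.14, FRM2 by 1.05 and SOR2 by 1.01. The groups of MEP2, FRM2 and SOR2 overlapped. SOR2 read 0.97 and -0.15 in set 1 and -0.22 and 1.11 in set 2 at 45 and 50 min. Its repeats thus disagreed in opposite directions, and averaging them kept this scatter out of its p-value. By its systematic name YMR173W-A lies at DDR48 (YMR173W), so the falls of this pair may not be independent. BTN2, a chaperone-related gene, differed by -1.04 ± 0.19, but its array sets were far apart, from -3.02 to -1.53 in set 1 and from -0.03 to 1.38 in set 2.

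The last time points, 115 and 120 min, did not enter the test. There the CLB2 cluster stood at 0.46 and 0.69, against 0.52 and 0.65 at 45 and 50 min. The medians of the Swi5 and separation lists were lower than at 70 to 80 min, but not as low as at 45 and 50 min. The separation list stood at -0.49 at both times, against -2.18 and -2.17 at 45 and 50 min. The Swi5 list stood at -0.57 and -0.37, against -1.67 and -1.58. Of the lists that fell, the histones stood at 0.10 and -0.11, against 0.19 and -0.08. The methionine list did not return, at -0.07 and 0.07 against 1.05 and 0.85. Of the single genes, ARO10 had a mean of 1.44 at 115 and 120 min, against 1.64 at 45 and 50 min. DDR48 had -0.30 against 0.64. The remaining lists and genes are not described at these times. These later values are given as a description, and the difference between the cycles was not tested.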

How the data were processed

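The authors deposited 1 table of log10 ratios per array, which ends at -2 and 2. Neither the log base nor the direction (Cy5 over Cy3) is stated; both were inferred, from the limits, from the labelled dyes and from the high FUS1 ratio at 0 min. The sources used here give no scanner, background correction or normalization. Dyes were never exchanged, and intensities were not used, so precision rests on how many arrays there are. The table had 6217 rows, from which 12 controls were removed. RefSeq's table of assembly R64 named 5703 open reading frames by locus tag, and the other 502 kept the file's name.

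Values at the limits (11 lower and 3 upper on the 10 arrays) were set to missing, and log2 ratios were median-centred per array and averaged over the 2 arrays of a time point. A gene needed a value at all 5 time points, and 201 were not tested. limma 3.58.1 in R 4.3.3 compared 2 time points with 3 (eBayes, Benjamini-Hochberg adjusted p under 0.05 over all tested genes). The script was tested on simulated data. Plots were drawn with Python 3.11.15 and matplotlib 3.10.9.

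The members and lists were chosen with earlier results of these data known. The genes examined singly, of which the text names those its results turn on, are YOX1, YHP1 and MCM1, the 15 largest changes each way with the same sign in both array sets, the 4 largest differences of each list, members behind counts of 5 or fewer and the regulators. Other list members, called or known for their role, were named after their values were seen. Lists are described by counts and medians, with no set test. The listed genes CWP2 and DDR2, 1 MBF target, 1 gene of the anaphase-promoting complex list, 1 alpha-specific gene, 2 ribosomal protein genes and 1 more stress gene had no test. Alternatives covered the time point and title date as blocks, the array set and title date as fixed terms and each set alone. They also covered centring, scaling, limits, filters, thresholds, each time point left out and the doubtful array left out. Promoter sequences were not used here, and 1 result is not reported here.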

Additional observations from a re-analysis of the deposited data

Results flagged for a closer look

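Of the 213 groups of 4 to 6 arrays examined for 109 named genes, 9 held an array far from the others, next to about 1 in 20 that chance gives. In the 45 to 50 min group AMN1 read -2.39 at 50 min in set 1, with the nearest other array at -2.94. HTA1 read 0.33 at 45 min in set 2, with the nearest at -0.15, and AGA2 read -0.98 at 45 min in set 1, with the nearest at -0.70. BFA1, a checkpoint gene of mitotic exit, read -0.56 at 50 min in set 2, with the nearest at 0.03. In the 70 to 80 min group NUD1, a scaffold of the mitotic exit network, read -2.56 at 70 min in set 1, while its other 5 arrays began at 0.05. STE2 read -1.15 and MCM5 read 1.47 on that same array, with the nearest values at -0.67 and 1.18. FAR1 read -0.41 at 80 min in set 1, with the nearest at -0.26, and MBP1, the DNA-binding subunit of MBF, read -0.60 at 75 min in set 1, with the nearest at -0.33.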

How the results depend on the processing

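The 2 arrays of a time point are not separate cultures, and leaving out 45 or 50 min leaves 1 time point there, assumed to vary like the other group. No named gene that was called reversed its sign under any alternative. The counts of higher and lower genes, 222 and 208, stayed within 1.5 times without centring, with arrays scaled alike or quantile normalised, with the limits kept, under either filter on missing values, with robust eBayes and in set 2 alone. They were 449 and 413 with all 10 arrays and the time point as a random block (correlation -0.28), and 440 and 396 with the array set added to that fit as a fixed term. They were 98 and 63 in array set 1 alone, 41 and 17 with the title date as a random block (correlation 0.52) and 129 and 97 with it as a fixed factor. An adjusted p under 0.01 left 34 and 11, one under 0.10 gave 413 and 386, and a test against a 1.5-fold change left 23 and 1. Leaving out 1 time point gave 20 to 287 higher and 1 to 220 lower genes, and leaving out the doubtful array gave 79 and 63. The cause of these shifts was not tested, beyond the fewer time points and the changed threshold themselves. Without 70 min 8 CLB2 cluster genes were lower and 9 MBF targets higher, against none and 3. Of 63 named genes called, 13 kept their call without 45 min, 19 without 50 min, 58 without 70 min, 29 without 75 min and 31 without 80 min. With the array set as a fixed term and the time point as a random block 62 kept it, and 24 and 45 did with the date as a random block and as a fixed factor. The array sets share a number between time points, and the design text calls them technical repeats. Of the separation genes 8 in place of 10 passed with the limits kept.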

Other observations

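The lists here were written after their values were seen and carry no test as groups. Of 16 hexose transporter genes 8 rose and none fell, and HXT13 (-0.91 ± 0.54) and 7 others did not pass the test. HXT2 rose by 1.79 ± 0.18 (adjusted p = 0.00549 in limma), HXT3 by 1.31 ± 0.09, HXT4 by 1.26 ± 0.11 and HXT6 by 1.03 ± 0.10, beside HXT7 (0.97), HXT5 (0.83), HXT8 (0.57) and HXT1 (0.51). In set 1 HXT1 had a value only at 75 min (-0.18), so its other means rest on set 2 alone (adjusted p = 0.0458 in limma). The mean of HXT7 at 75 min also rests on set 2 alone. HXT3 read -1.31 to -0.66 on the 4 early arrays and -0.12 to 0.82 on the later ones, with no overlap. HXT6 and HXT7 are near-identical, so their values are not independent. Of 15 chaperone genes 9 fell, none rose and 6 did not pass the test. How far related genes of this list share probe signal was not examined, so the 9 falls need not be independent. The constitutive Hsp70 genes SSA1 and SSA2 each fell by 0.92, SSA3 by 0.78, the Hsp90 genes HSP82 and HSC82 by 0.74 and 0.57, and the cochaperone genes STI1 and SSE1 by 0.62 and 0.66, beside SSA4 and BTN2. The ribosome-associated SSB1 and SSB2 differed by 0.20 and 0.04 and were not called.

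Of 4 tubulin genes 3 fell. The tubulin genes TUB1 (-0.75 ± 0.09), TUB2 (-0.72 ± 0.11) and TUB3 (-0.55 ± 0.12) were lower on every later array than on every earlier one, and TUB4, the gamma-tubulin gene, differed by 0.39 ± 0.16 (adjusted p = 0.198 in limma). Of 16 kinetochore genes, counting SGO1, the shugoshin, 6 fell and none rose. Among the 6 were CBF2 (-0.92 ± 0.09, adjusted p = 0.00396 in limma), SGO1 (-0.80 ± 0.12), SPC25 (-0.71 ± 0.11) and NDC80 (-0.64 ± 0.14). DSN1, already counted with the genes of S phase and G2, was another. Of 4 genes of the glycine cleavage system 2 fell: GCV1 and GCV2 fell by 0.93 and 0.72 from levels of 1.80 to 2.42, and remained above the reference on all 10 arrays, while GCV3 (-0.10 ± 0.11) and LPD1 (0.03 ± 0.10) were not called. Of 6 genes of aromatic amino acid breakdown 3 fell, ARO8 by 0.50 beside ARO9 and ARO10, while ARO80 (0.23 ± 0.12), PDC5 (-0.18 ± 0.14) and PDC6 (-0.24 ± 0.15) were not called.

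A small set of genes jumped between neighbouring samples. In both array sets 14 genes differed by more than 2 on the log2 scale between 45 and 50 min, all of them higher at 45 min. All 14 were also higher at 75 min than the mean of 70 and 80 min in both sets, and none was called. YAR010C read 1.00 and 0.45 at 45 min against -2.14 and -2.83 at 50 min, and its difference between the windows of -1.83 ± 0.96 had an adjusted p of 0.284. HAC1, the transcription factor of the unfolded protein response, read 0.62 and 0.02 at 45 min and -2.63 and -3.62 at 50 min. The other 12 keep systematic names. Whether some of the 14 are copies of a repeated sequence was not examined, so they need not be independent genes. The jumps were shared by the 2 arrays of a time point, and their cause was not tested.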
